A study of Mus musculus with 4 samples.

Results

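The transcription factors that switch an activated B cell between the germinal centre and the plasma cell programme were examined for occupancy by RIF1, a factor that controls replication timing. The set consisted of 8 listed genes, Bcl6, Bach2, Mef2b, Mef2c, Batf, Irf4, Prdm1 and Xbp1, out of 22380 protein-coding genes in the GENCODE annotation of mouse build mm9 (NCBIM37), and all 8 symbols were found there. They were chosen by name and not by any measured value, although earlier results of these data were known. RIF1 occupancy had been measured by ChIP-seq in primary mouse splenic B cells that were activated with LPS (5 µg/ml) and IL-4 (5 ng/ml) and harvested after 72 h. The Rif1FH group (2 samples, genotype Rif1FH/FH) carried RIF1 tagged at its own locus with FLAG and HA, and the Rif1WT group (2 samples, C57BL/6, Rif1WT/WT) carried the untagged protein. Per the study's methods both mouse lines had a C57BL/6 background, and both groups were cultured in the same way. The number and age of the mice, and whether spleens were pooled, were not given in the sources used here.

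The analysed list held 16332 intervals that the authors had called in both Rif1FH samples, as positions with no height, score or p-value. It gives no value per sample, so read depth and replicate spread are unknown and no test against Rif1WT was made. What follows describes counts, positions and distances in that list. Intervals under 50 kb numbered 16043 and are called peaks here. Intervals of 50 kb or more numbered 289 and are taken to be RIF1-associated domains (RADs). By the study's definition peaks do not overlap RADs, and 0 of the 289 wide intervals held a peak, so a gene inside a wide interval cannot also have a peak there. A gene without an interval is only one without a listed interval. The list holds no expression values, and the B cell identity of the samples was therefore not checked against marker genes.

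As background, the germinal centre state is held by BCL6, a transcriptional repressor, with support from MEF2B, which activates Bcl6, and from BACH2, which represses Prdm1. Plasma cell differentiation is driven by IRF4 and by BLIMP-1, the repressor encoded by Prdm1, which in turn silences Bcl6, while XBP1 equips the cell for antibody secretion. BATF dimerises with JUN proteins, cooperates with IRF4 and is needed for class switching, and MEF2C acts downstream of B cell receptor signalling.

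The 8 genes were split between the forms of RIF1 occupancy. A wide interval overlapped 5 of the 8, namely Bcl6, Bach2, Mef2b, Batf and Irf4, whereas 22.6% of all protein-coding genes overlapped one. All but Bcl6 of these, 4 of the 8, were wholly inside, against 21.3% of coding genes. Peaks lay over 2 of the 8, Prdm1 and Mef2c, against 35.8% of all protein-coding genes, and the same 2 genes had a peak within 1 kb of a transcript 5′ end, against 33.9%. Xbp1 had neither, as did 40.5% of protein-coding genes. Of the 3 genes outside wide intervals, 2 thus had peaks both over the gene and within 1 kb of a start, and 1 had neither, where the shares for all coding genes outside wide intervals were 45.8%, 43.4% and 52.3%. When 200 kb on each side was included, 6 of the 8 genes had a peak, all but Mef2b and Batf, against 69.2% of coding genes. With so few genes and no replicate values these counts are a description, and nothing particular to the set is read from them.

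**Figure D1:**
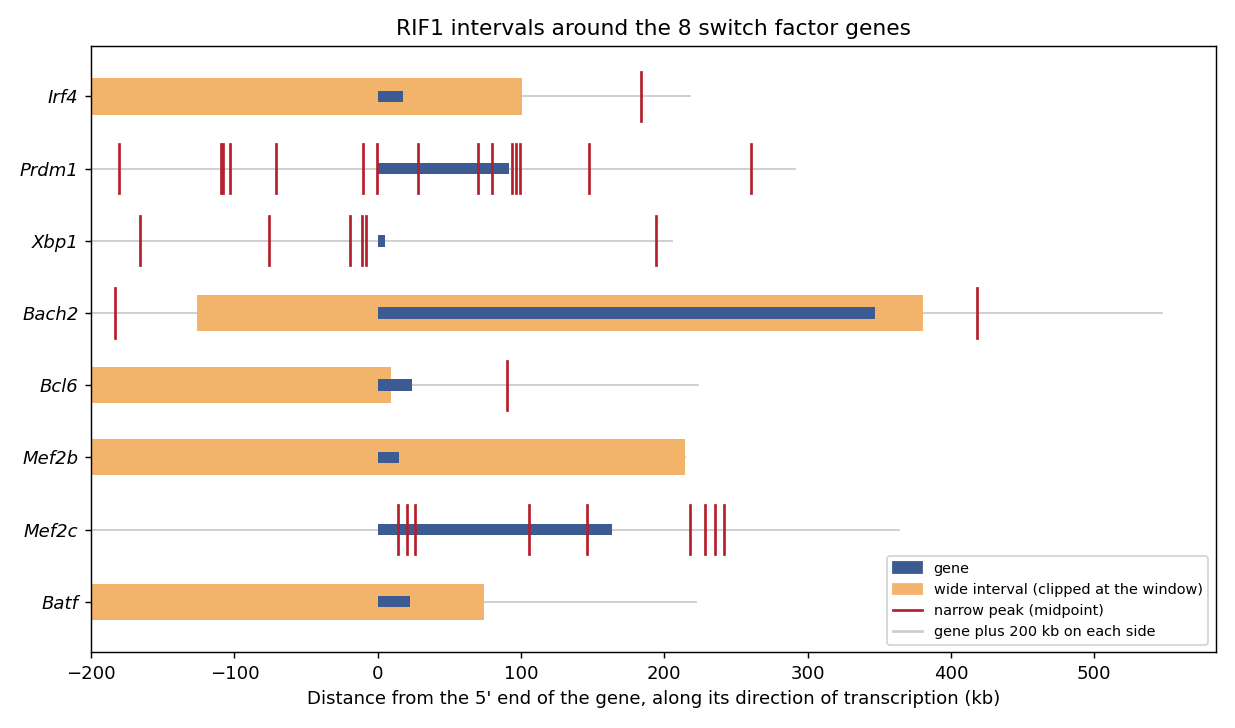
RIF1 intervals around each of the 8 genes, plotted as distance (kb) from the 5′ end of the gene along its direction of transcription, with the gene in blue, wide intervals in orange (clipped 200 kb beyond the gene) and the midpoints of peaks as red lines. Wide intervals cover all of Irf4, Bach2, Mef2b and Batf and the 5′ part of Bcl6, whereas Prdm1 and Mef2c have 4 and 5 peaks over the gene and Xbp1 has none.

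Of 25 distinct transcript 5′ ends annotated for the 8 genes, 13 lay inside a wide interval and 4 had a peak within 1 kb, where the shares over all distinct 5′ ends of protein-coding genes were 23.9% and 28.9%. Of the 13, 8 were ends of Bach2. These 4 were the 3 ends of Prdm1 and the inner end of Mef2c. The remaining 8 were the 6 ends of Xbp1, the outer end of Mef2c and an inner end of Bcl6.

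Bcl6 (ENSMUSG00000022508.5, chr16:23965138-23988938, minus strand) was the only gene of the set that lay partly inside a wide interval. The interval (chr16:23980001-24540000, 560 kb) began within the gene and ran 551 kb upstream of its 5′ end, so that it covered the 5′ end of the coding transcript and 8.94 kb of the 23.8 kb gene (37.6%). The edge lay 8.94 kb from that 5′ end, and the 3′ part of the gene, with the inner 5′ end of the retained-intron transcript Bcl6-002, was outside it. Of the 5051 protein-coding genes that overlapped a wide interval, 5.76% did so over only part of the gene. Both edges of 287 of the 289 wide intervals lay on a grid of 2 kb, so edges are placed no more finely than that. Those of the Bcl6 interval also lay on multiples of 20 kb, a larger step than the 8.94 kb from edge to 5′ end. Whether Bcl6 is partly or wholly covered may thus be below the resolution of the calls. The interval overlapped only 1 other coding gene, Lpp, which encodes a focal adhesion protein and whose 5′ end lay 404 kb from that of Bcl6. At 3.57 coding genes per Mb it was among the gene-poorest wide intervals, since 9.34% of them had fewer. No peak lay over Bcl6, and the nearest was 65.7 kb beyond its 3′ end (chr16:23897568-23899414, 1847 bp), outside annotated genes.

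Bach2 (ENSMUSG00000040270.9, chr4:32325779-32673083, plus strand), the longest gene of the set at 347 kb, was wholly inside a wide interval (chr4:32200001-32706000, 506 kb). The interval began 126 kb upstream of the 5′ end and ended 32.9 kb beyond the 3′ end, so that the gene made up most of it. It also overlapped D130062J21Rik, Gja10 and Casp8ap2. All 8 annotated 5′ ends of Bach2 lay inside. Peaks stood on either side of the interval, 57.1 kb before its start and 36.8 kb after its end, and the latter (chr4:32742827-32744509, 1683 bp) lay at the 5′ ends of Mdn1, a ribosome assembly factor gene, and Gm11936. The 300 bases upstream of the outer 5′ end (chr4:32325479-32325778) are shown. Among the genes without a peak at a 5′ end, Bach2, Irf4 and Xbp1 were taken by their order in the original gene list. Sequence played no part in that choice. The Bach2 bases were the most GC-rich of the 8 outer 5′ ends, at 73.7% GC with 45 CG dinucleotides. Capitals in this and the following sequences would mark a searched motif, of which this one has none.
Bach2 upstream: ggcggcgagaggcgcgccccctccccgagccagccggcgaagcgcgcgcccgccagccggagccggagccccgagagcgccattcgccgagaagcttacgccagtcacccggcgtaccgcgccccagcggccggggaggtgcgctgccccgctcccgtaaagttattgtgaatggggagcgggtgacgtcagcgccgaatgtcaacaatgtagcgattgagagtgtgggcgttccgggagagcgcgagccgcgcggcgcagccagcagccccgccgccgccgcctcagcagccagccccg

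Mef2b (ENSMUSG00000079033.3, chr8:72676677-72691387, plus strand) lay inside the widest interval that met the set (chr8:72140001-74900000, 2760 kb), which ranked 5 among the 289 wide intervals. It overlapped 115 protein-coding genes, or 41.7 per Mb, and 86.2% of wide intervals were less gene-dense. Mef2b was 537 kb from its start, and the nearest peak was 567 kb away. The gene shares its span with the longer annotated gene 2310045N01Rik (chr8:72663398-72691387), so the interval cannot be ascribed to Mef2b alone. Jund, which encodes a JUN protein, lay in the same interval, with its 5′ end 545 kb from that of Mef2b.

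Batf (ENSMUSG00000034266.5, chr12:87027619-87050037, plus strand) was wholly inside a wide interval (chr12:86436001-87102000, 666 kb, 14 coding genes). It lay towards the end of that interval, 592 kb from its start, and the 3′ end of the gene was 52.0 kb from the other edge. The same interval held Jdp2 and Fos, which encode further leucine zipper factors of the AP-1 group, with 5′ ends 87.3 kb and 213 kb from that of Batf. No peak lay within 200 kb of Batf, and the nearest was 204 kb away.

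Irf4 (ENSMUSG00000021356.3, chr13:30841095-30858796, plus strand) lay inside the narrowest of the 5 intervals (chr13:30618001-30942000, 324 kb), and 9.69% of wide intervals were narrower. The edges were 223 kb upstream of the 5′ end and 83.2 kb beyond the 3′ end. The interval overlapped Uqcrfs1, Dusp22 and Exoc2 besides Irf4. A single peak was listed within 200 kb, 166 kb beyond the 3′ end (chr13:31024696-31025601, 906 bp) and in the body of Exoc2, which encodes an exocyst subunit. The 300 bases upstream of Irf4 (chr13:30840795-30841094, 62.3% GC, 14 CG dinucleotides) are given by the same rule as those of Bach2. Both are start regions inside wide intervals, and that of Irf4 holds none of the searched motifs.
Irf4 upstream: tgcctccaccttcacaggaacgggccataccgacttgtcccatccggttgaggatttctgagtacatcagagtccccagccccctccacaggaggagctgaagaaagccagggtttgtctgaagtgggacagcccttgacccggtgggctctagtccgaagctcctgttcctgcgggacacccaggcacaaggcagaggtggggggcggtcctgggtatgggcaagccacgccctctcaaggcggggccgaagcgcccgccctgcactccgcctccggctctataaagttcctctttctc

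**Figure D2:**
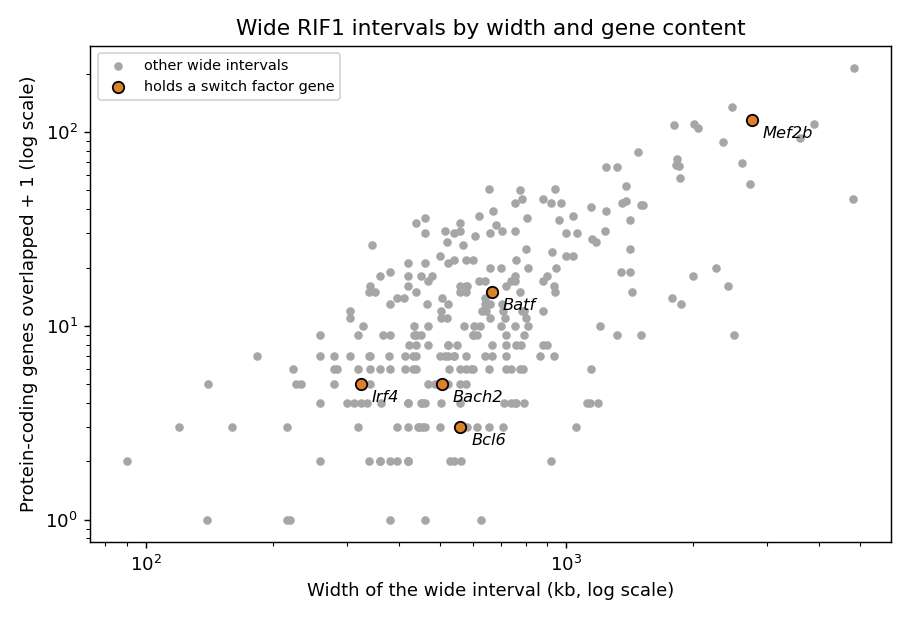
Width (kb, log scale) of each of the 289 wide intervals against the number of protein-coding genes it overlaps plus 1 (log scale), with the 5 that hold a switch factor gene in orange. The interval of Mef2b is among the widest, with 115 coding genes, and those of Irf4, Bach2 and Bcl6 hold 2 to 4.

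The wide intervals of the 5 genes were therefore of unlike size and gene content. Their widths ran from 324 to 2760 kb around a median of 576 kb for all wide intervals, and their coding genes from 2 to 115 around a median of 9. Their GC contents were 43.5% (Bcl6), 43.8% (Irf4), 44.4% (Bach2), 46.6% (Batf) and 48.4% (Mef2b), against a median of 45.4% over all wide intervals and 41.8% for the chromosomes in the list. The 5 genes lay in 5 different intervals.

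Prdm1 (ENSMUSG00000038151.6, chr10:44156983-44248307, minus strand) had 4 peaks over its 91.3 kb, and 1.76% of protein-coding genes had 4 or more. With 4.38 peaks per 100 kb it was near the median of 3.96 among the 8019 coding genes that had any peak. Of all coding genes, 88.2% were shorter than Prdm1. The peaks covered 9.04% of the gene. The widest (chr10:44246596-44250409, 3814 bp) was wider than 97.0% of all peaks and lay across the outer 5′ end, which belongs to the non-coding transcript Prdm1-003, with its midpoint 195 bp upstream. Another (chr10:44177655-44179556, 1902 bp) covered the 5′ ends of both coding transcripts, Prdm1-001 and Prdm1-002, with its midpoint 51 bp upstream of the former. The other 2 were inside the gene, at chr10:44219511-44221173 (1663 bp) in the intron between the outer and the coding 5′ ends, and at chr10:44167290-44170270 (2981 bp), with its midpoint in an intron but covering all 120 bp of exon 4 of Prdm1-001, which are coding.

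The centres of the peaks at the 5′ ends of Prdm1 are shown, as for every peak at a 5′ end of the set. All 3 annotated 5′ ends of the gene lay under a peak, and the centres differed in composition. The window at the coding 5′ ends (chr10:44178555-44178754, minus strand, without exonic bases) was 61.0% GC with 13 CG dinucleotides in 200 bases, whereas that at the outer 5′ end (chr10:44248352-44248651, minus strand) was 41.3% GC with 5 CG dinucleotides in 300 bases. The median over the centres of all peaks was 51.7% GC. Capitals mark TGANTCA, present in the former only. This pattern is wider than the site bound by AP-1 factors (TGACTCA or TGAGTCA). The match here reads TGAATCA, which is not that site.
Prdm1 peak at the coding 5′ ends: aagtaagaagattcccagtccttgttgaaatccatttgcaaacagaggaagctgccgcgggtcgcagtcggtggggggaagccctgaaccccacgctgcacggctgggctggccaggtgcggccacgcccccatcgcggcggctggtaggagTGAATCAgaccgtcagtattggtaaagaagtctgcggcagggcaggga
Prdm1 peak at the outer 5′ end: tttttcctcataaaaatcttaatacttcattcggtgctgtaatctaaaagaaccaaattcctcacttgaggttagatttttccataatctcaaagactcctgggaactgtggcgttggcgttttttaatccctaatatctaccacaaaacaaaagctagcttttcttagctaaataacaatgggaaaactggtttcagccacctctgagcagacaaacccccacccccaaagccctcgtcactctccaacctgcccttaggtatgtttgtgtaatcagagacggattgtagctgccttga

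The surroundings of Prdm1 were also rich in peaks. Including 200 kb on each side, 15 peaks were listed, or 3.05 per 100 kb, against 0.627 per 100 kb over the spans of all chromosomes that held peaks. Of protein-coding genes, 2.29% had 15 or more. The flanks held 6 peaks upstream and 5 downstream of the gene. Of these 11, 10 lay outside annotated genes and 1 at the 5′ end of Atg5, an autophagy gene, so that most flanking peaks were away from annotated 5′ ends. A run of 3 peaks stood 1.91, 4.63 and 7.27 kb beyond the 3′ end, and another 3 stood 102 to 109 kb upstream. The nearest wide interval was 525 kb away.

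Mef2c (ENSMUSG00000005583.8, chr13:83643033-83806684, plus strand) had 5 peaks over its 164 kb, and 0.903% of protein-coding genes had 5 or more. At 3.06 peaks per 100 kb its density was below the median of 3.96 for coding genes with a peak, and 94.4% of coding genes were shorter than Mef2c. All 5 midpoints were in introns. The outer 5′ end, used by 4 of the 5 annotated transcripts, had no peak, and the nearest began 13.4 kb inside the gene. The inner 5′ end, of transcript Mef2c-202, was covered by a peak of 1618 bp (chr13:83662461-83664078) whose midpoint lay 707 bp upstream of it. The peak on one side of it had its midpoint 6.74 kb upstream of that end (chr13:83656455-83658011, 1557 bp) and that on the other had its midpoint 4.86 kb downstream (chr13:83668638-83669024). The latter, at 387 bp, was among the narrowest in the list, since 0.704% of peaks were narrower. The last 2 were at chr13:83748216-83749150 (935 bp) and chr13:83788097-83790113 (2017 bp), with midpoints 106 and 146 kb from the outer 5′ end.

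The centre of the peak at the inner 5′ end of Mef2c (chr13:83663119-83663418) is shown as the only peak at a start of this gene. It was 46.7% GC with 9 CG dinucleotides. Capitals mark a match to the IRF element (GAAA, any pair of bases, and GAAA again), which is recognised by IRF proteins. The build has an assembly gap of 100 unknown bases in this peak (chr13:83663705-83663804), between its midpoint and the 5′ end, where no read can align.
Mef2c peak at the inner 5′ end: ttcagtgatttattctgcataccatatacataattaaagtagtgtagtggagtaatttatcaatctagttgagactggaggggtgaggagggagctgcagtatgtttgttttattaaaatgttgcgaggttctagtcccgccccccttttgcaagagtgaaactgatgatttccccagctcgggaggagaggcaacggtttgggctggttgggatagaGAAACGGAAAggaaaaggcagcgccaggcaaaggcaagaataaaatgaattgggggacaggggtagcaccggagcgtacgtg

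Around Mef2c the peaks were all on one side. The 200 kb upstream held 0 peaks and the 200 kb downstream 4, at 52.8 to 77.5 kb beyond the 3′ end. Of these 4, 3 lay at the 5′ ends of C130071C03Rik, Gm17547 or Mir9-2, a microRNA gene, and 1 outside genes. The widest of them (chr13:83868989-83873615, 4627 bp) was wider than 98.6% of all peaks. The nearest wide interval was 8.86 Mb away, the most distant of the set.

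**Figure D3:**
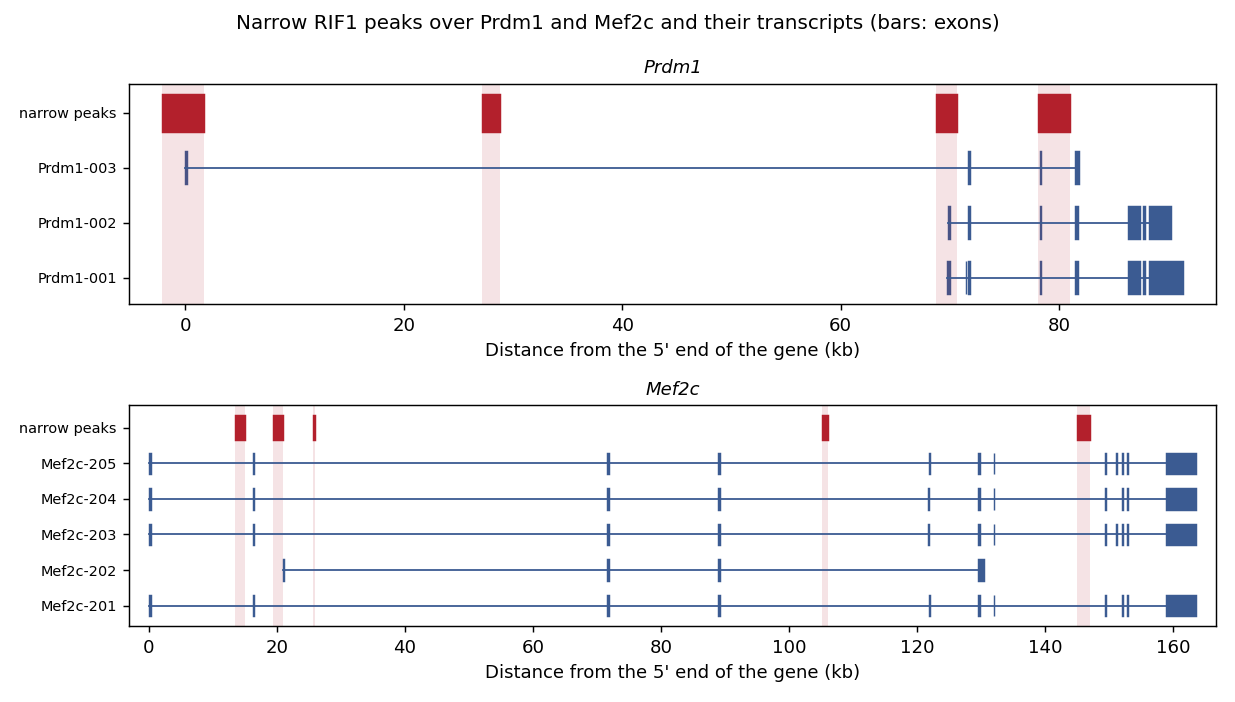
Peaks (red, with shading) over Prdm1 and Mef2c and the annotated transcripts (lines, with exons as bars), by distance (kb) from the outer 5′ end of each gene. Peaks of Prdm1 cover the outer 5′ end and the coding 5′ ends, whereas the outer 5′ end of Mef2c has none and its first peak begins 13.4 kb inside the gene.

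Xbp1 (ENSMUSG00000020484.11, chr11:5420662-5425896, plus strand), the shortest gene of the set at 5.24 kb, overlapped no interval. The nearest peak lay 7.49 kb upstream (chr11:5411495-5413170, 1676 bp), next to another at 10.3 kb (chr11:5408489-5410411, 1923 bp), both outside annotated genes. A further peak 18.2 kb upstream (chr11:5399662-5402420, 2759 bp) was at the 5′ end of Gm11963. In all 5 peaks lay within 200 kb upstream and 1 downstream, at the 5′ end of Mrps24, a mitochondrial ribosomal protein gene. The 6 peaks around Xbp1 exceeded the median of 5 for coding genes without a wide interval, and 42.2% of coding genes were nearer to a peak. The nearest wide interval was 5.97 Mb away. The 300 bases upstream of the outer 5′ end (chr11:5420362-5420661, 51.3% GC) are shown by the same rule as those of Bach2. They hold, in capitals, 4 runs of GGG separated by 1 to 7 bases. This pattern can fold into a G-quadruplex, a structure RIF1 can bind in vitro.
Xbp1 upstream: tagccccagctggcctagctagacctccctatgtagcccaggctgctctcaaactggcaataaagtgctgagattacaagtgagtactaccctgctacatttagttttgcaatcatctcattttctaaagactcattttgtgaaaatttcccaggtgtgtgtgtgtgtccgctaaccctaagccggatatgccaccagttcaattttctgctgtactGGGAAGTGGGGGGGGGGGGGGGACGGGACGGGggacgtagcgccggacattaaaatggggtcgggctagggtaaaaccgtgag

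The same motifs were counted on both strands in windows of 300 bases, and matches are a description of letters and not of binding. The GGG pattern was in 11.9% of all peak centres and in 20.4% of the windows upstream of coding genes. Of the 9 peaks over Prdm1 and Mef2c, only the peak at chr13:83656455-83658011 held it in its central 300 bases, and the rest of each peak was not searched. Upstream of annotated 5′ ends of the set, the GGG pattern was found in 2 overlapping windows of Xbp1 and in 2 of Bach2. The latter, of the inner 5′ ends at chr4 positions 32325925 and 32326052, overlap as well. The window at the inner 5′ end of Mef2c was not counted because of the assembly gap. TGANTCA was in 9.66% of peak centres and 7.12% of upstream windows, the IRF element in 5.12% and 4.12%, and TGACGTG, a site of XBP1 and related factors, in 1.68% and 1.90%. In the centres of the 9 peaks, TGANTCA was found in the peak at the coding 5′ ends of Prdm1. The IRF element was found in that at the inner 5′ end of Mef2c and in that at chr13:83788097-83790113. TGACGTG was found in 0 of these centres. Upstream of annotated 5′ ends, TGANTCA was found at the coding ends of Prdm1 and at Xbp1 position 5421926. The Prdm1 windows cover the same match as the peak centre. It was likewise found at Bach2 positions 32588480, 32588522 and 32661906, and the IRF element at the first and second of these, whose windows overlap.

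Upstream GC content varied widely within the set. It was 73.7% for Bach2, 62.3% for Irf4, 57.3% for Bcl6, 53.3% for Mef2b and 45.7% for Batf, which all overlapped wide intervals, against a median of 55.0% for the coding genes with a wide interval. Prdm1 and Mef2c, with 43.7% and 34.7% at their outer 5′ ends, were low for genes with a peak and no wide interval, whose median was 58.0%. Of those genes, 6.92% and 0.448% had a lower GC content. Both outer ends are upstream of further annotated 5′ ends, and the window at the 5′ end of Prdm1-001 was 60.7% GC. Xbp1, at 51.3%, was above the median of 47.0% for genes with neither kind of interval.

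**Figure D4:**
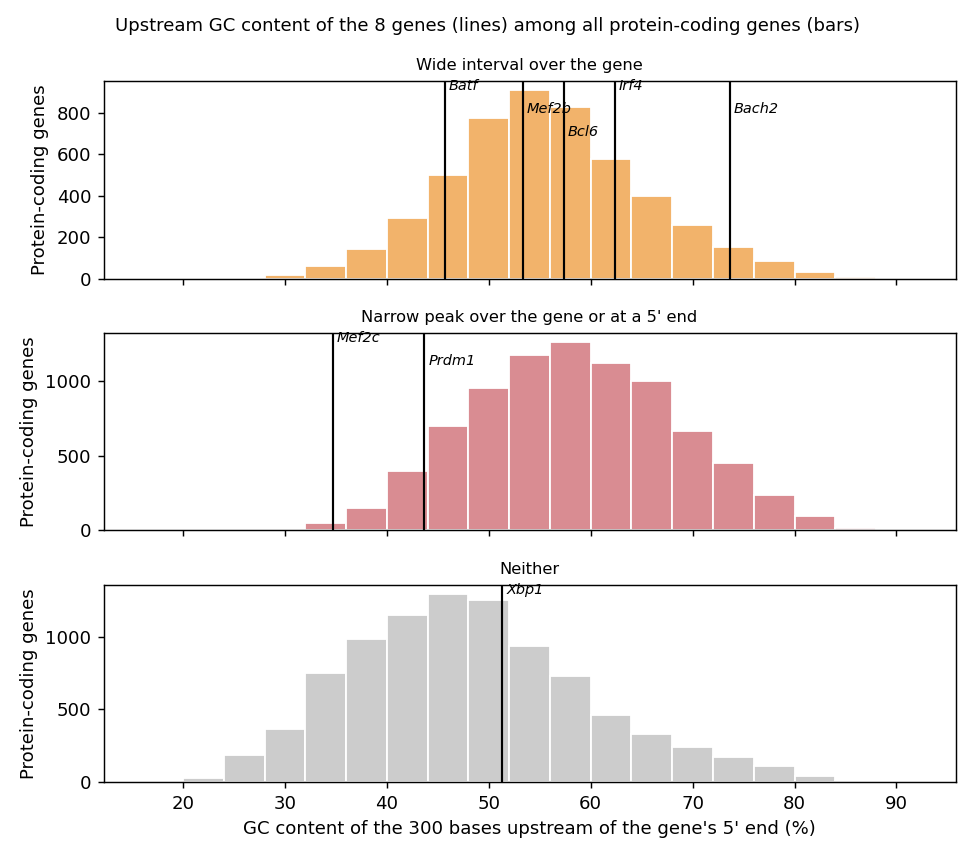
GC content (%) of the 300 bases upstream of the outer 5′ end for all protein-coding genes (bars, number of genes in bins of 4 percentage points), by the form of RIF1 occupancy, with the 8 genes as black lines. Mef2c (34.7%) and Prdm1 (43.7%) sit in the lower part of the genes with a peak, and the 5 genes with a wide interval run from 45.7 to 73.7%.

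To place the set among the genes it works with, 98 further genes were examined in 3 lists, written with earlier results of these data known. Of 36 germinal centre regulators and effectors, 19 overlapped a wide interval, 14 had a peak and no wide interval, and 3 (Crebbp, Mybl2 and Tnfrsf13c) had neither. Over all protein-coding genes the shares of these classes were 22.6%, 36.9% and 40.5%, and they are the background for each of the lists and families that follow. Among those overlapping a wide interval were Foxo1, Id3, Tcf3, Spib, Ezh2, Mll2, Ets1, Pou2f2, Hdac3, Mta3, Tbl1xr1, S1pr2, Gna13, Rgs13, Cxcr4, Cxcr5, Cd83 and Bcl7a, although the interval covered 11.3% of Ezh2 and 60.3% of Tbl1xr1. The most peaks lay over Bcor, encoding a corepressor that binds BCL6, with 12 over 124 kb, Ccnd3, encoding cyclin D3, with 9 over 94.6 kb, and Pax5, the B cell identity factor gene, with 5 over 180 kb.

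Of 28 genes of the plasma cell programme, 9 overlapped a wide interval (Atf4, Atf6, Atf6b, Derl3, Dnajc3, Edem1, Fkbp11, Hsp90b1 and Pdia4), 14 had a peak and no wide interval, and 5 had neither, against 22.6%, 36.9% and 40.5% of all coding genes. The interval covered only part of Atf6. The 5 with neither were Ern1, which encodes the kinase and nuclease IRE1 that splices Xbp1 mRNA, Hspa5, Eif2ak3, Igj and Pdia6. Most peaks were over Zbtb20 (7 over 767 kb), Il6ra (4 over 43.8 kb) and Ell2 (3 over 64.9 kb), which encodes an elongation factor of secretory immunoglobulin mRNA. The median distance to a peak was 0.0875 kb in this list, 108 kb in the germinal centre list, 67.7 kb for the 8 genes, 0 kb for the partners and relatives described next and 26.5 kb over all coding genes, where a gene inside a wide interval counts with its distance to the nearest peak outside.

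Of 34 partners and relatives of the 8 factors, 15 overlapped a wide interval, 18 had a peak and no wide interval, and 1 had neither, against the same 22.6%, 36.9% and 40.5% of all coding genes. Most peaks lay over Prdm2 and Irf2 (3 each). A further 6 genes, Bach1, Sfpi1, Prdm9, Prdm10, Prdm11 and Prdm16, had 2 each, and Prdm9 had the highest density of these, at 9.40 per 100 kb. Together with the set, all 3 BATF genes examined (Batf, Batf2 and Batf3) and both BCL6 genes examined (Bcl6 and Bcl6b) overlapped wide intervals, as did 5 of 9 IRF genes examined (Irf3, Irf4, Irf7, Irf8 and Irf9), the other 4 having peaks. Of the 7 FOS and JUN genes examined, Fos, Fosb, Fosl1, Junb and Jund overlapped wide intervals and Jun and Fosl2 had peaks. Of the 10 PRDM genes examined, 0 overlapped a wide interval, 9 had a peak and Prdm14 had neither. The 4 MEF2 genes examined were divided, with Mef2b and Mef2d in wide intervals and Mef2a and Mef2c under peaks, and Bach1 likewise had peaks where Bach2 lay in a wide interval. Neighbouring genes such as Batf and Fos, of different families, share an interval, so the listed genes are not always independent.

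**Figure D5:**
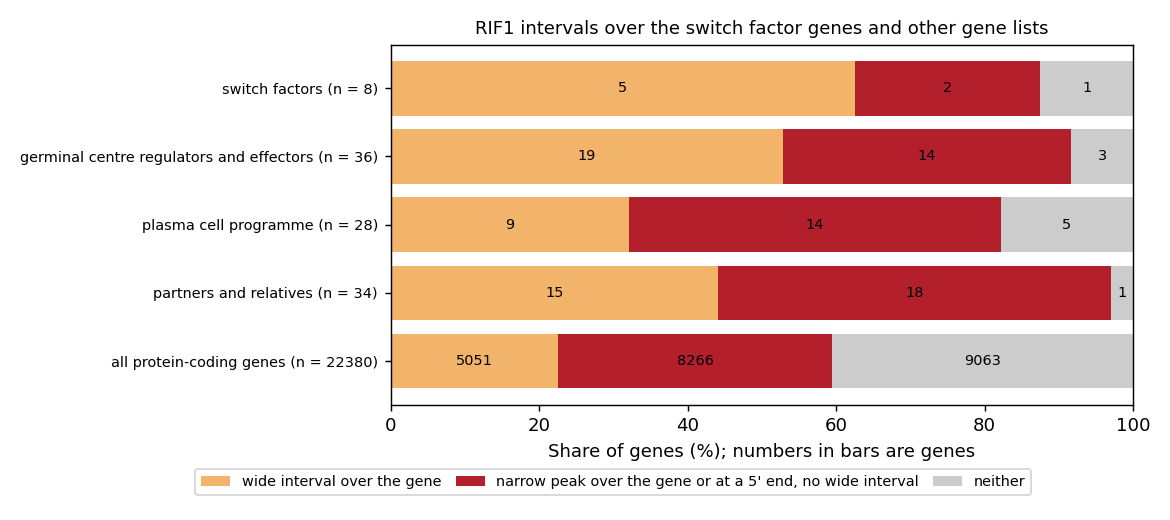
Share of genes (%) with a wide interval over the gene (orange), with a peak over the gene or within 1 kb of a 5′ end and no wide interval (red), or with neither (grey), for the 8 switch factors, the 3 further lists and all protein-coding genes, with the number of genes in each bar. Wide intervals overlap 5 of 8 switch factors, 19 of 36 germinal centre genes, 9 of 28 plasma cell genes and 15 of 34 partners and relatives, against 5051 of 22380 coding genes.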

How the data were processed

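RIF1 ChIP-seq was performed by the authors with an anti-HA antibody on chromatin of 200 to 600 bp. The antibody label names a CD43 bead reagent, and the extraction protocol was followed here. Per the study's methods and the labels, reads were trimmed (Trim Galore 0.6.4), aligned uniquely to mm9 (Bowtie 1.0.0), and called per replicate with MACS2 2.2.6 and, for RADs, with EDD. The calls were merged with bedtools 2.27.1 and kept where found in both replicates. Unique alignment drops reads that match several places equally well. Calling thresholds and the use of Rif1WT samples in calling were not given in the sources used here. The deposited file holds positions only (chromosome, start and end, in bp), without counts or scores.

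Positions were counted from 1. Intervals were split at 50 kb, an overlap was at least 1 bp, and windows were 1 kb on each side of every transcript 5′ end and 200 kb on each side of the gene. Distances run from edge to edge, and where a midpoint is named from that midpoint. Genes came from GENCODE M1, sequences from NCBIM37. All 8 genes were described with every interval over them, and in each other list the 3 genes with the most peaks and those in wide intervals, except 1 gene that is not reported here. Kmt2d and Spi1 were matched as Mll2 and Sfpi1. The genes, lists and windows were chosen with earlier results of these data known. No test was run. Overlap functions were tested on simulated data. Python 3.11.15, numpy 2.4.6, scipy 1.17.1 and matplotlib 3.10.9 were used.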

Additional observations from a re-analysis of the deposited data

How the results depend on the processing

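The 8 counts and shares were recomputed in 50 comparisons, 45 planned and 5 added after the data were seen. Of these, 35 kept their value and 15 did not. Counts were held to within 1.5 times. Shares of coding genes were held to the 95% Wilson interval (35.2 to 36.5% with a peak over the gene, 33.3 to 34.5% at a 5′ end). That interval is only a narrow limit here, since the shares cover all coding genes in 1 list, and measures no spread between samples. The limits for counts and shares are thus unlike. With the outer 5′ end alone, 1 gene of the set (Prdm1) had a peak at its start, since that of Mef2c is at its inner end, and 31.8% of coding genes had one. With flanks of 50 kb, 3 genes had a peak over or near them. The share over all coding genes was not computed for that flank, so nothing is read from this count. Counting peaks and wide intervals together gave 7 genes with an interval over them and 7 at a 5′ end, against 58.0% and 56.0% of coding genes. A peak over the gene was found at 23.7% of coding genes with the wider peaks (median width or more) and at 25.7% by peak midpoint. The share with a peak at a 5′ end was 21.7% and 32.2% under those settings, and 31.1%, 33.2%, 34.9% and 36.7% with windows of 0.1, 0.5, 2.5 and 5 kb. These shifts follow from counting fewer or more intervals or sequence. No interval lay between 20 and 50 kb (0 listed), so by construction splitting at 20 kb changed no value, and 8 of the 35 comparisons that kept their value are of this kind. With at least 50% of the gene required inside a wide interval, 4 of the 8 remained, without Bcl6. The share over all coding genes was not computed at this setting. It must lie between the 21.3% wholly inside a wide interval and the 22.6% overlapping one.

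No paired analysis was possible because both replicates had been joined into a single list before deposit, and no replicate was left out for the same reason. Depth is unknown, so a gene without a listed interval is not shown to lack RIF1.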
